A study of Mus musculus with 4 samples.

Results

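Hypoxia-inducible factor 1 (HIF1) and genes that it induces were examined in mouse CD4+ T cells with and without Pdk4. The 10 genes, matched by symbol, were Hif1a, Egln1, Egln3, Vhl, Bnip3, Bnip3l, Ndrg1, Higd1a, P4ha1 and Vegfa, out of 23238 symbols in the count tables, and targets that encode glycolytic enzymes were kept apart. All 10 had counts in every library and passed the filter on low counts, as did 11464 genes in all. The groups were PDK4 KO cells (2 libraries) and WT cells (2 libraries), both from C57BL/6j mice. All 4 libraries were made from naive CD4+ T cells of spleen and lymph nodes, isolated with magnetic beads and activated through CD3 and CD28 with added IL-2 during 48 hours, so no group of resting cells or of cells at low oxygen stands beside them. The labels give neither the part of Pdk4 that was deleted, nor the oxygen level of the culture, nor whether the libraries of a genotype came from separate mice, and the p-values therefore reflect library-to-library spread that may be technical.

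HIF1 is a dimer of an oxygen-labile alpha subunit, encoded by Hif1a, and a stable beta subunit, encoded by Arnt. When oxygen is plentiful, prolyl hydroxylases of the EGLN family mark the alpha subunit for the ubiquitin ligase that contains VHL, and it is degraded. When it escapes, the dimer binds hypoxia response elements and raises genes of glycolysis, mitochondrial turnover, matrix synthesis and blood vessel growth. In T cells, antigen receptor and mTOR signals also raise HIF1 without hypoxia. Pdk4 encodes a kinase that holds back pyruvate dehydrogenase in mitochondria, and its relative Pdk1 is itself a HIF1 target. Much of the control of HIF1 acts on the protein, which was not measured here.

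The 3'-end libraries held 8837810 to 9739624 counts each, and levels are given as CPM, a gene's share of its library total, scaled by edgeR's TMM factors. A read count from the 3' end does not grow with transcript length, which helps when levels are set side by side between genes. Multimapped reads and overlapping genes may still affect some genes more than others, so orders and ratios between genes are approximate. Markers of the labelled cell type were present. Cd4 was at 269 and 251 CPM in PDK4 KO libraries and at 252 and 255 CPM in WT libraries, while of the CD8 chains Cd8a was at 0.409 and 0.544 CPM against 2.62 and 2.96 CPM, and Cd8b1 at 11.7 and 20.5 CPM against 23.2 and 16.4 CPM, with overlapping libraries. Of 8 tested CD4 T cell markers, Cd5 rose, Cd2 fell and 6 did not pass. Pdk4 had 0 and 2 counts in PDK4 KO libraries, against 1 and 0 counts in WT libraries, all under a floor of 3 counts, so it gives no check of the genotype. Markers of other cells differed between libraries. The B cell markers summed to 147 and 154 CPM in PDK4 KO libraries, against 273 and 317 CPM in WT libraries, and 12 of 14 tested fell. Pax5 was at 0 in every library and Cd22 at 0 in both PDK4 KO libraries. The CD8 T and NK cell markers summed to 507 and 451 CPM against 682 and 672 CPM. Of 16 tested 1 fell, Gzma, at 76.2 and 51.3 CPM against 220 and 219 CPM, which made up most of that difference. The other 15 did not pass, 2 of the 16 were higher in the knockout, and Gzmk was at 0 in every library. The myeloid markers summed to 14.8 and 29.3 CPM against 38.9 and 33.1 CPM. Of 7 tested 1 fell, Fcer1g, at 8.18 and 10.7 CPM against 21.3 and 19.6 CPM. The other 6 did not pass, and 2 of the 7 were higher in the knockout. Adgre1 had 0 counts in both PDK4 KO libraries, and 0 and 3 counts in WT libraries. Platelet markers summed to 5.01 and 5.22 CPM against 2.96 and 2.43 CPM, and the 1 tested did not pass. The part of these differences in the results for the 10 genes was not tested. In bulk samples such as these, fewer cells of a type and less RNA per cell cannot be told apart.

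The core of the hypoxia response element is ACGTG or GCGTG, and both were searched on both strands in the 250 bases before each RefSeq gene start (GRCm38.p6). A window was matched for 8 of the 10 genes, in 9 windows because Vegfa has more than 1 start, and Bnip3l and Ndrg1 had no match. ACGTG was found in 6 of the 9 windows and either motif in 7, while 16.6% of all 32851 windows of this length held ACGTG and 38.6% held either. Among the 11114 windows of tested genes the shares were 21.9% and 56.4%. These shares were not matched for base composition, and G and C made up 50.8% (Egln3) to 86.0% (Egln1) of the member windows. The windows of Vhl and of the upstream start of Vegfa held neither motif. The other Vegfa window (chr17:46025164-46025413), which held both, lies within the annotated gene, as do the windows of Hif1a and Higd1a. All 250 bases of the Higd1a window are in annotated untranslated regions. Such windows are thus not upstream of every annotated start, and the shares for members include them. The window of Higd1a held GCGTG at 2 places and no ACGTG, and that of Egln1 held each motif at 1 place. The 4 windows below are shown because they belong to a gene that fell (Hif1a), to the member with the largest difference (Bnip3) and to members close to level between genotypes (Egln3 and P4ha1). Capitals mark the motifs on either strand. In Hif1a and in Bnip3, ACGTG lies on both strands within the palindrome CACGTG, which is also the E-box bound by other factors such as MYC. A match is a string of letters and not a measured binding site. The windows lie at chr12:73907617-73907866 on the plus strand (Hif1a), chr7:138909507-138909756 on the minus strand (Bnip3), chr12:54203875-54204124 on the minus strand (Egln3) and chr10:59323046-59323295 on the plus strand (P4ha1), each written 5′ to 3′ along its gene.
Hif1a: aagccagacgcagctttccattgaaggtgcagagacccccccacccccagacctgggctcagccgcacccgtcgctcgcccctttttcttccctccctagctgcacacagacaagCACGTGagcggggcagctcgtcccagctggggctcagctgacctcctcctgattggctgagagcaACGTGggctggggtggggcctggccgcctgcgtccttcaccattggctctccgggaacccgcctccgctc
Bnip3: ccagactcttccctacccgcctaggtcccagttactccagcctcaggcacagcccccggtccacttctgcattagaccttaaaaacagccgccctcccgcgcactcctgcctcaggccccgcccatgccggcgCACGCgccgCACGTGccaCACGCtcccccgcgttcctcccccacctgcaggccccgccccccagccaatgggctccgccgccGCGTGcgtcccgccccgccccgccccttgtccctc
Egln3: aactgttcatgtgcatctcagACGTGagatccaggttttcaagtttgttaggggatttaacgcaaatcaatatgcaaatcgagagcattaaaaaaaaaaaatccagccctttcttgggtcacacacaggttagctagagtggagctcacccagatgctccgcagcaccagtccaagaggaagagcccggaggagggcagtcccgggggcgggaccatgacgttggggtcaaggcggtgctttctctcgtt
P4ha1: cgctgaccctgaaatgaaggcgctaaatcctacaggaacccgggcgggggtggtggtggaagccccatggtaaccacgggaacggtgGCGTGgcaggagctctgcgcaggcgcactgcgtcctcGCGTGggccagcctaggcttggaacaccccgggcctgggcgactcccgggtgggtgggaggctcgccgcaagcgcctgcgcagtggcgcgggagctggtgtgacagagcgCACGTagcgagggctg

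Knockout cells had less mRNA for Hif1a and for the respiratory chain factor Higd1a, and more for Ndrg1. Among the 10 genes 1 rose and 2 fell in edgeR's quasi-likelihood test at an adjusted p under 0.05, and 7 did not pass. Over all 11464 tested genes 2.66% were called, of which 1.45% were higher and 1.21% were lower in the knockout. PDK4 KO and WT libraries were fully separated in 8 of the 10 genes, against 43.4% of all tested genes, and 4 of the 10 had an unadjusted p under 0.05, against 13.5% of all. The knockout was lower in 7 of the 10. Their median log2 fold change was -0.14, beside a median of 0.00 over all tested genes, and their median absolute log2 fold change was 0.21, beside 0.18 over all. The calls rest on few libraries, since 0 of the 10 were called without PDK4 KO replicate 2 or without WT replicate 2, and 1 was called without either of the others. The number called over all genes was 305 with every library, 170 without PDK4 KO replicate 1 and 184 without WT replicate 2.

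**Figure D1:**
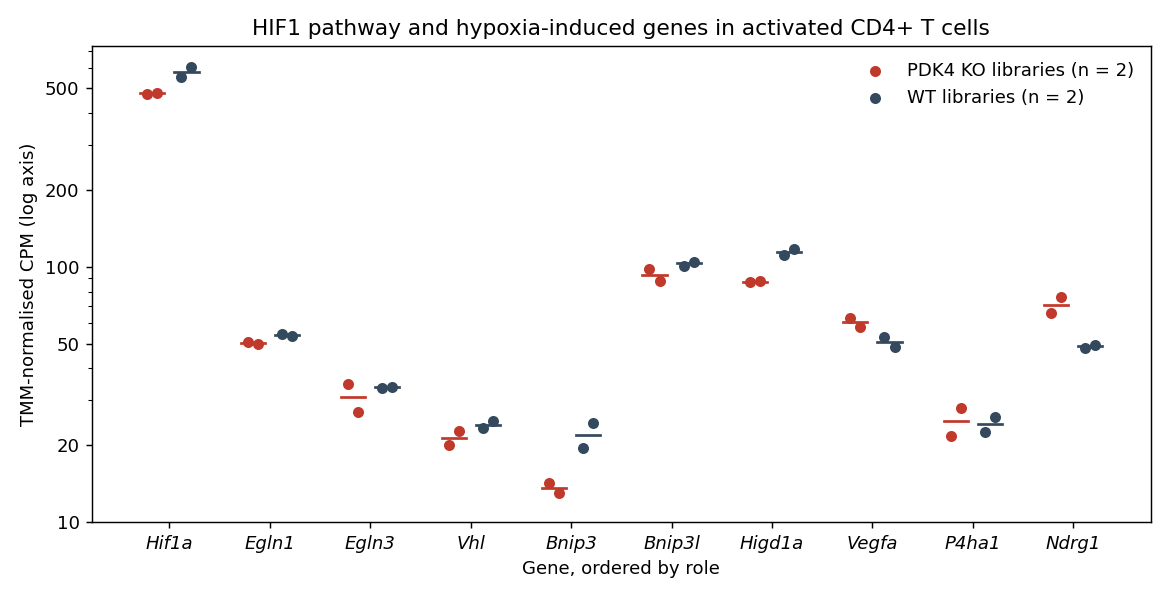
TMM-normalised CPM (log axis) of the 10 genes in each library, with PDK4 KO libraries in red and WT libraries in dark blue (n = 2 each); horizontal lines are group means. Hif1a stands alone at 474 to 604 CPM, and the other 9 genes lie between 13.0 and 117 CPM.

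Hif1a, on chromosome 12 from 73901375 to 73947530 (GRCm38, plus strand), was the most abundant of the 10 and stood at the 98.1 percentile of all tested genes by its mean CPM. It had 474 and 480 CPM in PDK4 KO libraries, against 552 and 604 CPM in WT libraries. The PDK4 KO libraries were close to each other, and both lay below both WT libraries. Hif1a fell by 0.28 on the log2 scale (SE 0.0708, 95% interval -0.42 to -0.13, adjusted p = 0.0241 in edgeR's quasi-likelihood test). The direction was kept in each fit that left out a library. The call was lost without PDK4 KO replicate 1 (adjusted p = 0.221), without PDK4 KO replicate 2 (0.132) and without WT replicate 2 (0.271). The annotated genes Gm49321, on the same strand, and Gm15283, on the other, cover the 3' end of Hif1a. Neither had a row under that name in the count tables, so reads of theirs may have been added to Hif1a or left out. Reads from the 3' end could belong to Gm49321 whether or not strand was used in counting, and to Gm15283 where it was not used. The strand setting was not stated, and the value of Hif1a is uncertain in both respects.

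The oxygen sensors and the ligase subunit that act on the HIF1 alpha protein showed no difference that passed the test. Egln1, the main prolyl hydroxylase of most tissues (chromosome 8, 124908587 to 124949324), was at 50.6 and 49.8 CPM in PDK4 KO libraries and at 54.4 and 53.4 CPM in WT libraries. Its libraries did not overlap, but the log2 fold change was -0.10 (95% interval -0.38 to 0.18, adjusted p = 0.829 in edgeR). Egln3, a hydroxylase that is itself induced by HIF1 (chromosome 12, 54178981 to 54203860), was at 34.7 and 26.9 CPM in PDK4 KO libraries and at 33.6 and 33.8 CPM in WT libraries. The PDK4 KO libraries lay on either side of the WT libraries, and the log2 fold change was -0.13 (95% interval -0.49 to 0.23, adjusted p = 0.829 in edgeR). Vhl, the substrate-binding subunit of the ligase (chromosome 6, 113623959 to 113631633), was at 20.1 and 22.7 CPM in PDK4 KO libraries and at 23.3 and 24.9 CPM in WT libraries. Its difference was smaller than its error, with a log2 fold change of -0.17 (SE 0.203, 95% interval -0.58 to 0.24, adjusted p = 0.797 in edgeR). The intervals of these 3 genes leave room for a knockout level between 0.667 and 1.18 times the wild-type one. In every library there was more Egln1 than Egln3, with a ratio of 1.46 and 1.85 in PDK4 KO libraries and of 1.62 and 1.58 in WT libraries.

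Of the mitochondrial targets, Higd1a fell and the related mitophagy receptors Bnip3 and Bnip3l did not pass. Higd1a, an inner membrane protein that associates with the respiratory chain and is induced by hypoxia (chromosome 9, 121848563 to 121858362), had 87.2 and 87.6 CPM in PDK4 KO libraries, against 111 and 117 CPM in WT libraries. The genotypes did not overlap, and each pair of libraries was closer together than the genotypes were apart. It fell by 0.39 on the log2 scale (SE 0.107, 95% interval -0.60 to -0.17, adjusted p = 0.0423 in edgeR's quasi-likelihood test). The call was near the threshold. It was lost without PDK4 KO replicate 1 (adjusted p = 0.231), PDK4 KO replicate 2 (0.168), WT replicate 1 (0.0776) or WT replicate 2 (0.265), with DESeq2 (0.0679), with scaling to library size only (0.0687) and with a replicate block (0.0673), while the log2 fold change stayed between -0.42 and -0.35.

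Bnip3, a mitochondrial outer membrane protein that recruits the autophagy machinery (chromosome 7, 138890836 to 138909519), was the least abundant of the 10 in WT libraries. It had 14.3 and 13.0 CPM in PDK4 KO libraries, from 140 and 119 counts, against 19.6 and 24.5 CPM in WT libraries, from 172 and 232 counts. Both PDK4 KO libraries were below both WT libraries, and the WT libraries differed from each other by more than the PDK4 KO libraries did. The log2 fold change of -0.69 was the largest in size among the 10, but with an SE of 0.23 it did not pass (unadjusted p = 0.00508, adjusted p = 0.117 in edgeR). Its adjusted p lay between 0.0837 and 0.553 over the 13 alternatives tried, so it was not called in any of them. The antisense gene Gm45507 lies 128 bases from the annotated 3' end of Bnip3, with the same limit on strand as for Gm15283 at Hif1a. Gm45507 had no row under that name in the count tables either. Bnip3l, also known as Nix, is a mitophagy receptor needed for the clearing of mitochondria from maturing red cells (chromosome 14, 66985239 to 67008877). It had 98.0 and 88.0 CPM in PDK4 KO libraries and 101 and 104 CPM in WT libraries, with a log2 fold change of -0.14 (95% interval -0.36 to 0.08, adjusted p = 0.644 in edgeR). Red cell markers did not follow genotype, with a sum of 81.1 and 240 CPM in PDK4 KO libraries and of 207 and 43.5 CPM in WT libraries, where 0 of 6 tested passed in edgeR, DESeq2 or limma-voom and 0 had an unadjusted p under 0.05 in edgeR. The level of Bnip3l was 6.84 and 6.80 times that of Bnip3 in PDK4 KO libraries, and 5.17 and 4.24 times in WT libraries.

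**Figure D2:**
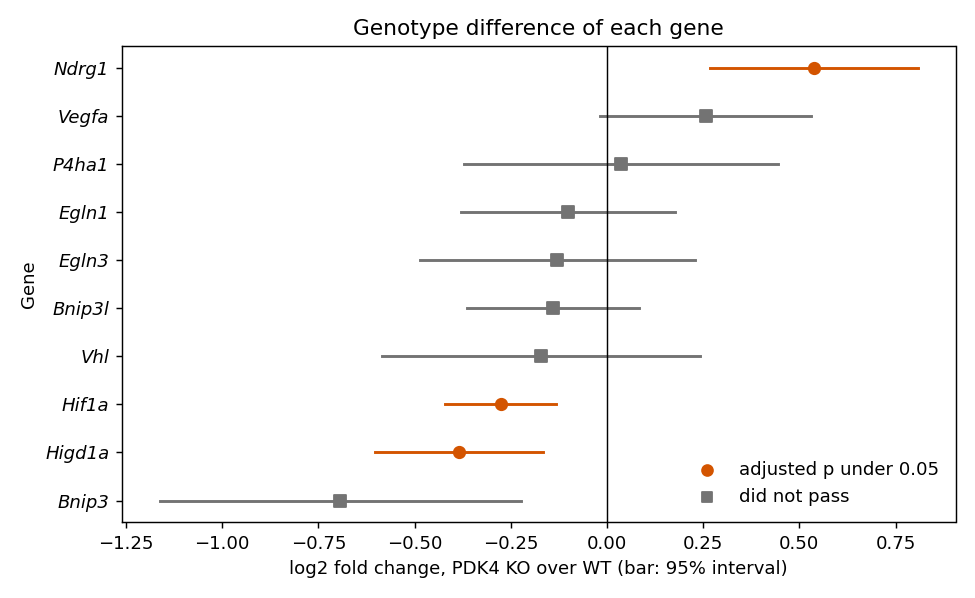
The log2 fold change of each gene, PDK4 KO over WT, with its 95% interval; orange circles are genes past the test and grey squares did not pass. Ndrg1 lies to the right of 0 with an interval of 0.27 to 0.81, Hif1a and Higd1a lie to the left, and Bnip3 lies farthest left with an interval of -1.16 to -0.22 that excludes 0 before adjustment only.

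Ndrg1 was the member that rose. It encodes a cytoplasmic protein induced by hypoxia and by other stresses, and it has been linked to T cell anergy in mice (chromosome 15, 66929318 to 66969640). It had 65.9 and 76.0 CPM in PDK4 KO libraries, from 644 and 698 counts, against 48.1 and 49.6 CPM in WT libraries, from 423 and 469 counts. Both PDK4 KO libraries were above both WT libraries, and the mean was 1.45 times as high. The log2 fold change was 0.54 (SE 0.133, 95% interval 0.27 to 0.81, adjusted p = 0.0174 in edgeR's quasi-likelihood test). It was called with every other scaling, filter and tool that was tried and without PDK4 KO replicate 1 (adjusted p = 0.0247). It was not called without PDK4 KO replicate 2 (0.232), WT replicate 1 (0.0829) or WT replicate 2 (0.0882), with a log2 fold change of 0.43 to 0.64 over the fits that left out a library. The antisense gene Gm17035 lies 289 bases from the annotated 3' end of Ndrg1, within the gene, so reads of the pair could not be told apart without strand. Gm17035 had no row under that name in the count tables.

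Vegfa and P4ha1, which act outside the cell or on its secreted proteins, did not pass. Vegfa, the angiogenic growth factor (chromosome 17, 46016993 to 46032369), had 63.3 and 58.0 CPM in PDK4 KO libraries and 53.0 and 48.6 CPM in WT libraries. Both PDK4 KO libraries lay above both WT libraries, with a log2 fold change of 0.26 (95% interval -0.02 to 0.53, adjusted p = 0.413 in edgeR). P4ha1, a subunit of the prolyl hydroxylase that modifies collagen (chromosome 10, 59323296 to 59373304), had 21.8 and 28.0 CPM in PDK4 KO libraries and 22.6 and 25.8 CPM in WT libraries. The PDK4 KO libraries lay on either side of the WT libraries, with a log2 fold change of 0.04 (95% interval -0.37 to 0.45, adjusted p = 0.967 in edgeR).

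By level in WT libraries the order was Hif1a, Higd1a, Bnip3l, Egln1, Vegfa, Ndrg1, Egln3, P4ha1, Vhl and Bnip3. Over all 4 libraries the ranges of Higd1a and Bnip3l met, at 87.2 to 117 CPM and 88.0 to 104 CPM. Those of Egln1, Vegfa and Ndrg1 met, within 48.1 to 76.0 CPM. Those of Egln3, P4ha1, Vhl and Bnip3 met from each to the next, within 13.0 to 34.7 CPM. Hif1a did not meet any other, and no gene of one of these sets met a gene of the next. In PDK4 KO libraries Ndrg1 stood above Vegfa and Egln1, while in WT libraries it stood below Egln1 and overlapped Vegfa.

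**Figure D3:**
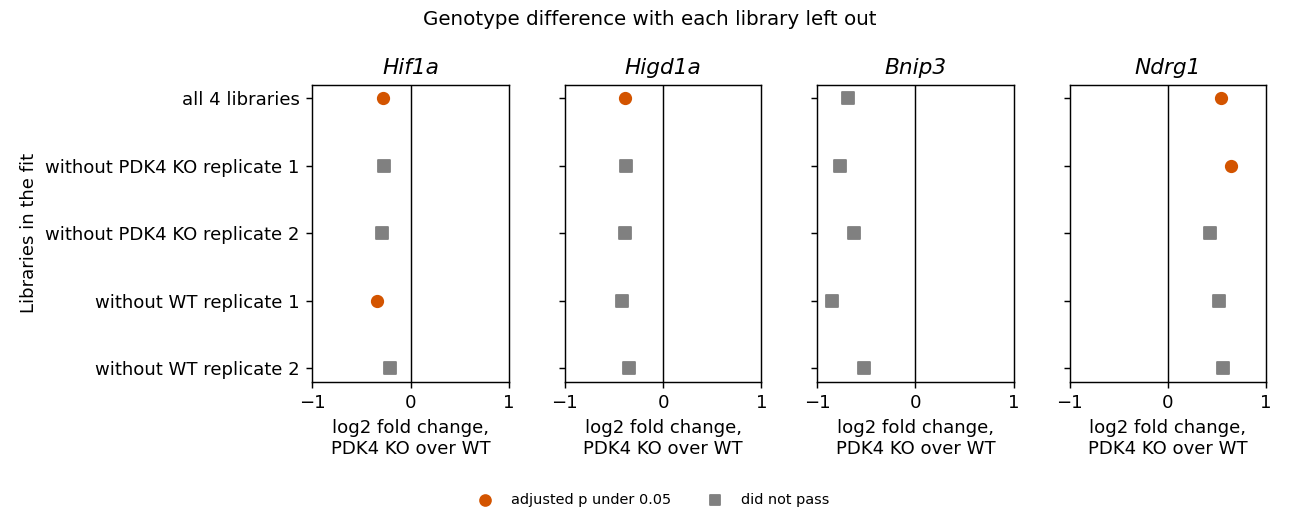
The log2 fold change, PDK4 KO over WT, of Hif1a, Higd1a, Bnip3 and Ndrg1 with all 4 libraries (top row) and with each library left out; orange circles have an adjusted p under 0.05 and grey squares do not. Every point of Hif1a, Higd1a and Bnip3 is left of 0 and every point of Ndrg1 is right of it, while Hif1a and Ndrg1 each keep their call in 1 of the 4 reduced fits and Higd1a in 0.

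Other parts of the pathway gave 0 calls. Of 17 tested genes for other HIF pathway components (further alpha and beta subunits, hydroxylases, ligase subunits and coactivators), 0 rose and 0 fell in edgeR, DESeq2 and limma-voom. In edgeR 1 of the 17 had an unadjusted p under 0.05, against 13.5% of all tested genes, and the median log2 fold change was -0.01. With 2.66% of all tested genes called in edgeR, 0 of 17 does not set this list apart from other genes. The 3 with the smallest p were the chaperone Hsp90ab1, which binds the alpha subunit, at 4878 and 4871 CPM in PDK4 KO libraries against 5061 and 5570 CPM in WT libraries (adjusted p = 0.242 in edgeR), Gnb2l1 (-0.10 on the log2 scale) and the ligase subunit Tceb2 (-0.16). Without WT replicate 1, Hsp90ab1 was called as lower (adjusted p = 0.00659). Chosen for their role after their values were seen, the beta subunit Arnt had 9.21 and 18.0 CPM in PDK4 KO libraries and 13.2 and 12.8 CPM in WT libraries, and the alternative alpha subunit Epas1 had 2.35 and 0.544 CPM against 1.36 and 5.39 CPM. The hydroxylase Egln2 was at 44.4 and 48.6 CPM against 51.6 and 52.6 CPM, and Hif1an, which hydroxylates an asparagine of the alpha subunit, at 35.5 and 34.0 CPM against 32.4 and 34.8 CPM. None of these 4 passed in edgeR, with adjusted p between 0.496 and 0.965.

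Among 32 tested hypoxia-induced genes outside glycolysis and outside the 10, 0 rose and 0 fell in edgeR, 5 had an unadjusted p under 0.05, and the median log2 fold change was 0.04. Over all tested genes 2.66% were called in edgeR and 13.5% had an unadjusted p under 0.05. DESeq2 also called 0 of the 32, and limma-voom called 1, Tfrc. The 3 with the smallest p were higher in the knockout. The transferrin receptor Tfrc had 188 and 196 CPM in PDK4 KO libraries, against 171 and 134 CPM in WT libraries (0.33 on the log2 scale, adjusted p = 0.0729 in edgeR). It was called without WT replicate 1 (0.52, adjusted p = 0.000959). The lipoprotein receptor Vldlr had 15.9 and 17.6 CPM against 11.9 and 9.83 CPM (adjusted p = 0.256), and the log2 fold change of Pdk1 was 0.56 (adjusted p = 0.12).

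Among glycolytic targets of HIF1 most values were lower in the knockout, with 15 of 18 tested genes below 0 and a median log2 fold change of -0.22, beside 49.9% of all tested genes below 0. Of the 18, 2 fell and 0 rose in edgeR, DESeq2 and limma-voom, while 1.21% of all tested genes fell in edgeR. The 2 were Aldoa (-0.30) and Pkm (-0.28). Without PDK4 KO replicate 1 or WT replicate 2, 0 fell, and without PDK4 KO replicate 2, 1 fell. Eno1 had 0 counts in every library and was not tested. Its reads may have been lost if they mapped to more than 1 place, so its expression cannot be judged here.

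**Figure D4:**
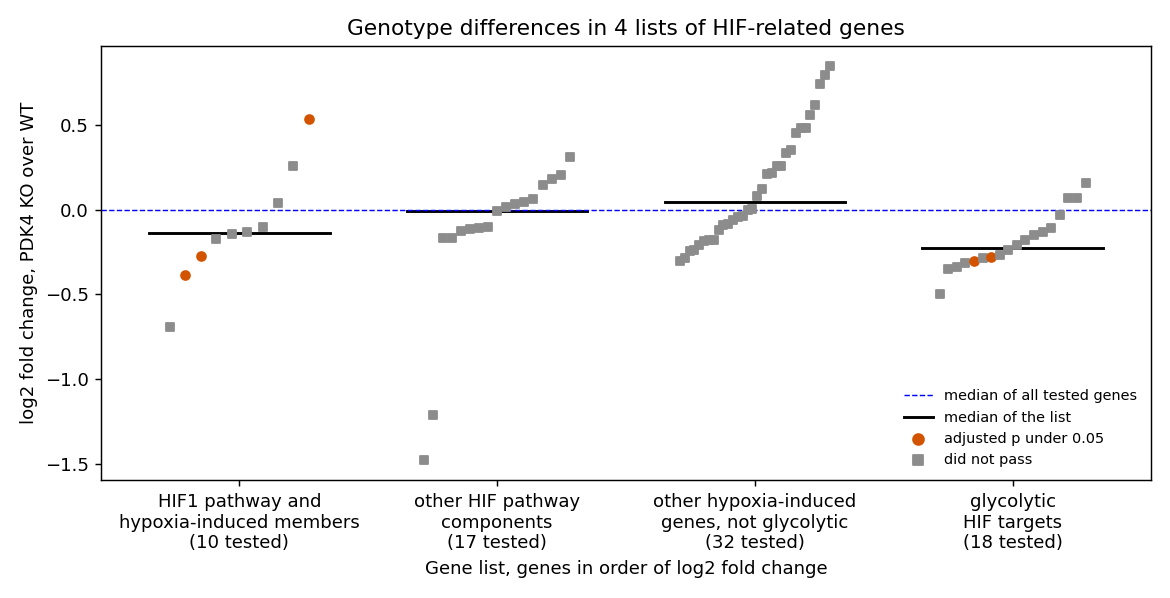
The log2 fold change, PDK4 KO over WT, of each tested gene in 4 lists, in order within each list; orange circles are past the test, grey squares did not pass, black lines are list medians and the dashed line is the median of all tested genes. The medians are -0.14 for the 10 members, -0.01 for other pathway components, 0.04 for other hypoxia-induced genes and -0.22 for glycolytic targets.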

How the data were processed

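RNA from 4 libraries was analysed, 2 of PDK4 KO and 2 of WT activated CD4+ T cells. Per the labels' protocols, 500 ng of total RNA entered the Lexogen QuantSeq 3' kit. The authors deposited raw counts per gene symbol, 1 table a library. Bowtie2, edgeR and mm10 are named in the submitters' processing notes without role or version. The counting tool, annotation and strand setting were not given in the sources used here. Multimapped reads may have been split or lost in near-identical genes.

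Of 23282 rows, repeats of 35 symbols were summed. Genes passing filterByExpr were tested with the quasi-likelihood F test of edgeR 4.0.16 (R 4.3.3), two-sided, with TMM factors and genotype as sole term, and p-values were adjusted by Benjamini-Hochberg over all tested genes. "Rose" and "fell" mean an adjusted p under 0.05. The SE is the log2 fold change divided by the square root of F, and 95% intervals use the test's degrees of freedom. Alternatives used other scalings, filters, DESeq2 1.42.0, limma-voom 3.58.1, totals without Rn45s, each library left out, and a replicate block. A floor of 3 counts is 0.308 to 0.339 CPM and covers counting error only, since reads were not collapsed by molecule.

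Members and lists were chosen with earlier results of these data known. Named genes are the 10 members and, of each other list, those past the test or the 3 with the smallest p. Pdk4 was named as the targeted gene, Arnt, Epas1, Egln2 and Hif1an were added for their role after their values were seen, Eno1 for its counts of 0, and cell type markers as a check of the libraries. Positions are from GENCODE vM21 (GRCm38, the assembly mm10 names), promoter windows from RefSeq. The test was tested on simulated data.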

Additional observations from a re-analysis of the deposited data

How the results depend on the processing

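The direction of Hif1a, Higd1a, Bnip3 and Ndrg1 held in the 13 alternatives. With other scalings, filters, tools or totals, and with the block, 2 or 3 of the 10 members were called, and 0 or 1 with a library left out. Such fits of 3 libraries assume that the lone library varies like the other genotype. Sign changes among the 10 arose only there, for members that had not passed: the log2 fold change lay between -0.33 and 0.04 for Egln3 and between -0.15 and 0.21 for P4ha1. With a library left out, calls numbered 0 to 1 among other HIF pathway components, 0 to 1 among other hypoxia-induced genes, 0 to 3 among glycolytic targets and 170 to 293 over all genes. Other hypoxia-induced genes gave 1 call, Tfrc, with no filter, with the stricter filter and with limma-voom. Replicate numbers are shared by the genotypes, and deviations of same-numbered libraries correlated at 0.0111 over genes. So low a value gives no sign of pairing but cannot exclude it, since counting noise also lowers such a correlation. With the replicate block 260 genes and 2 of the 10 members were called, Hif1a and Ndrg1. The cause of these shifts was not tested. Members that did not pass are not shown to be alike in the genotypes, since their intervals allow differences in either direction or, for Bnip3, a lower level.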
